A study of Mus musculus with 10 samples.

Results

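The comparison of microglia sorted from organotypic mouse brain slices kept 3 weeks in culture with microglia from slices kept 1 day covered 4 of the 10 single-cell libraries of the series, chosen by their labels. After the filters on cells, 6425 of 19059 cells entered it, and the counts were summed per library because the library, not the cell, was the replicate. Every slice was cut from the brain of early postnatal C57BL/6 pups without the cerebellum and cultured on a membrane insert in medium with horse serum and platelet-derived growth factor, so both groups shared the cutting, the serum and the growth factor. Slices were homogenised together, and live CD11b high, CD45 intermediate cells were sorted for the 10X Genomics 3' kit (version 2), which reads the end of a transcript and counts each molecule once. The comparison of 3 weeks with 1 day addresses what changes in microglia between the time just after slicing and a settled culture. Age and culture time rose together, since the 3 week cells had also lived longer, so maturation and recovery from cutting cannot be told apart. Each group held 2 libraries, which the series describes as biological replicates.

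Microglia are the resident macrophages of the brain. In healthy adult tissue they carry a set of so-called homeostatic genes, among them purine receptors that sense nucleotides released by damaged cells, and this set depends on transforming growth factor beta (TGF-beta) and on the transcription factor Sall1. Cutting tissue releases nucleotides, lipids and debris, to which microglia answer with cytokines, chemokines that draw in blood leukocytes, and stress defences. A further state, the disease-associated state described in degenerating brain, combines lower homeostatic genes with lysosomal, lipid-handling and phagocytic genes such as Cst7, Gpnmb, Apoe and Trem2.

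The 1 day libraries held 518 and 1014 cells with 3661690 and 9539163 unique molecular identifiers (UMIs, counted molecules), and the 3 week libraries held 1153 and 3740 cells with 7819156 and 22332658 UMIs. Medians were 6452.5 and 8335 UMIs per cell at 1 day and 6112 and 5266 at 3 weeks, and pairs of these libraries shared 1 to 4 barcodes. Levels are given below as counts per 1000000 UMIs (CPM), for replicate 1 and then replicate 2. The level of a gene in a library was scaled by the trimmed mean of M values, while sums of markers, Xist and levels within a class of cells were CPM of the plain total. All 8 microglial markers were detected in all 4 libraries, with a sum of 2448 and 2199 CPM at 1 day and 7669 and 5308 CPM at 3 weeks, and the 8 general myeloid markers summed to 11560 and 9288 CPM and to 19390 and 17960 CPM. The 10 border macrophage markers summed to 521 and 451 CPM at 1 day, with 1 and 0 of them at 0, and to 297 and 210.1 CPM at 3 weeks, with 3 and 2 at 0. In all cells 6 of 10 were called lower. The count was also 6 in the cells left as defined below, where F13a1 lost its call and Stab1 gained one. The 10 oligodendrocyte lineage markers went the other way, from 71.0 and 61.9 CPM, with 4 and 1 at 0, to 165 and 109 CPM, with 2 and 0 at 0, and 3 of 7 tested were called higher. The 10 monocyte markers summed to 202 and 399.7 CPM at 1 day and to 20.5 and 12.6 CPM at 3 weeks, with 5 and 3 at 0. In all cells 7 of 9 tested were called lower, and in the cells left 5 were. Over all genes tested, 13.9% were called higher and 12.8% lower. Markers of T, B and NK cells summed to 27.9 to 42.9 CPM, those of endothelial cells and pericytes to 7.84 to 33.6 CPM, neuronal markers to 3.36 to 10.6 CPM and fibroblast markers to 0.944 CPM or less. The part of these cells in the results was not tested. The 6 haemoglobin and erythrocyte markers summed to 3465 CPM in slice 1 day replicate 1 and to 0 to 1.02 CPM in the other 3 libraries. Xist was at 703 CPM in slice 1 day replicate 1 and 1180.0 CPM in slice 3 weeks replicate 2 and at 2.83 and 1.15 CPM in the other 2 libraries, where Ddx3y, Eif2s3y, Kdm5d and Uty were detected, so each group held 1 library of either pattern.

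Blood leukocytes stood apart between the groups. Cells with S100a8 and S100a9, the abundant calcium-binding proteins of neutrophils, at 1% or more of their UMIs made up 68 of 518 cells (13.1%, exact 95% binomial interval 10.3 to 16.3) and 114 of 1014 cells (11.2%, 9.36 to 13.4) at 1 day. At 3 weeks there were 0 of 1153 and 0 of 3740 such cells, which allows shares of up to 0.26% and 0.0802%. That limit is 3 over the number of cells, as for each 0 of cells below, and the exact interval reached 0.319% and 0.0986%. Cells with 2 or more UMIs of the monocyte genes Ccr2 and Ear2 numbered 34 (6.56%) and 46 (4.54%) at 1 day and 1 and 0 at 3 weeks. These intervals cover counting error only, and the sort for CD45 intermediate cells was meant to remove both kinds of cell. Neutrophil RNA was also found outside those cells. With every cell thinned to 1800 UMIs, S100a8 had a UMI in 45.9% and 97.0% of the cells left at 1 day (84.6% and 100% without thinning) and in 0.266% and 0.0271% at 3 weeks. Results that changed in the 416, 854, 1152 and 3740 cells left without the neutrophil and monocyte-like cells are named below, and the part of free neutrophil RNA in the falls was not tested.

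Per the labels, slice 3 weeks replicate 1 bore another study code than the remaining 3 libraries, so a fit within 1 label and a fit with the label as a covariate are set beside the results they change. Log2 CPM over 12157 genes correlated at 0.967 between the 3 week libraries, at 0.965 between the 1 day libraries and at 0.878 to 0.900 across the groups, a description over genes.

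A gene was called when its adjusted p was under 0.05 in edgeR's quasi-likelihood test (Benjamini-Hochberg over 12157 genes, n = 2 libraries per group) and its fold change was over 1.5. By this rule 1689 genes (13.9% of all tested) were higher and 1557 (12.8%) lower at 3 weeks than at 1 day, and the median log2 fold change of all genes was 0.05. Among the cells left, 1672 of 11979 genes (14%) were higher and 1479 (12.3%) lower, and 1536 and 1309 genes were called the same way in both fits. The number of calls leaned on single libraries. Without slice 1 day replicate 2, 656 genes were higher and 784 lower, and without slice 1 day replicate 1 the counts were 1108 and 1226. Without slice 3 weeks replicate 1 there were 2260 and 2009 calls, within 1 study label 2310 and 2059, and without slice 3 weeks replicate 2 there were 1199 and 1145. Without 1 of these libraries, or within 1 study label, a group is a single library, which the fit assumes to vary like the libraries of the other groups. In what follows, errors are standard errors of the fit, a log2 fold change is 3 weeks minus 1 day, and for each gene said to rise or fall both libraries of one group lay above both of the other. Where the log2 fold change of a called gene is given, a further one follows if leaving out a library, the label as a covariate or the cells left moved it by over 1.5 times in fold, unless the 1 library left in a group was at 0.

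Where genes averaged 5 or more on the log2 CPM scale over all 10 libraries of the fit, the largest called rise was that of Cst7. This average took in the 1 week, adult and in vitro libraries, so a gene could pass it that was lower in the libraries compared. Cst7 encodes cystatin F, an inhibitor of lysosomal cysteine proteases and a marker of disease-associated microglia. Cst7 rose from 27.5 and 28.3 CPM at 1 day to 917 and 1669 CPM at 3 weeks (log2 fold change 5.53 ± 0.37, adjusted p = 5.48e-05). Slc1a3, a glutamate transporter best known from astrocytes, rose from 5.24 and 1.24 CPM at 1 day to 31.2 and 32.1 CPM at 3 weeks (log2 fold change 3.62 ± 0.42). The 10 astrocyte markers summed to 20.8 and 17.7 CPM at 1 day and 37.9 and 40.9 CPM at 3 weeks, of which Slc1a3 itself made up 5.46, 1.26, 30.8 and 30.9 CPM before scaling, and the part of astrocyte RNA in its rise was not tested. Gpnmb, a transmembrane glycoprotein of lipid-laden phagocytes, rose from 18.3 and 21.5 CPM at 1 day to 236 and 151 CPM at 3 weeks (log2 fold change 3.26 ± 0.25). Ramp1, a subunit of the receptor for calcitonin gene-related peptide, rose from 20.4 and 10.9 CPM at 1 day to 131 and 155 CPM at 3 weeks (log2 fold change 3.26 ± 0.28). Ltc4s, the enzyme that makes leukotriene C4, rose from 109.6 and 58.1 CPM at 1 day to 679 and 708 CPM at 3 weeks (log2 fold change 3.06 ± 0.26). The rise of these genes was about as large in the cells left, where the log2 fold changes were 5.41 for Cst7, 3.49 for Slc1a3, 3.11 for Gpnmb, 3.65 for Ramp1 and 3.23 for Ltc4s. The plot of the 12 largest rises shows the level of each gene in each library.

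**Figure D1:**
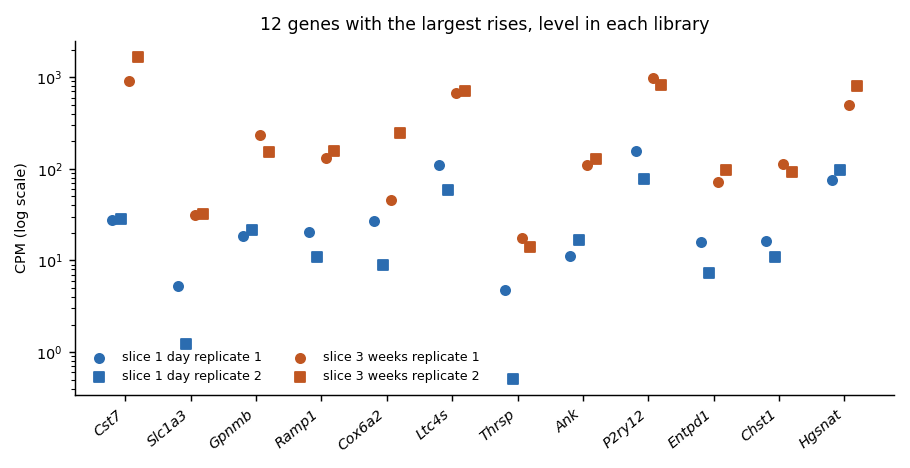
CPM (log axis) of the 12 called genes with the largest rises, with 1 day libraries in blue and 3 week libraries in orange (circles, replicate 1, and squares, replicate 2). For each gene both orange points lie above both blue points, as the choice of these genes required. The gap is widest for Cst7, and spreads within a group are wide for Thrsp at 1 day (4.72 and 0.515 CPM) and Cox6a2 at 3 weeks (45.4 and 248 CPM).

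Also among the 12 largest rises was P2ry12, the ADP receptor through which microglia sense injury, which rose from 155 and 76.96 CPM at 1 day to 978 and 818 CPM at 3 weeks (log2 fold change 2.96 ± 0.31, adjusted p = 0.000182). Entpd1, the ectonucleotidase CD39 that degrades ATP and ADP, rose from 15.99 and 7.32 CPM at 1 day to 72.6 and 96.003 CPM at 3 weeks (log2 fold change 2.95 ± 0.30). Ank, a membrane protein of pyrophosphate and ATP release, rose from 11.3 and 16.9 CPM at 1 day to 109 and 129 CPM at 3 weeks (log2 fold change 3.03 ± 0.22). Hgsnat, a lysosomal membrane enzyme of heparan sulfate breakdown, rose from 74.96 and 96.2 CPM at 1 day to 498 and 802 CPM at 3 weeks (log2 fold change 2.92 ± 0.26). Chst1, a sulfotransferase of keratan sulfate, rose from 16.5 and 11.02 CPM at 1 day to 113 and 91.7 CPM at 3 weeks (log2 fold change 2.94 ± 0.24). The remaining large rises were of low genes or less even libraries. Thrsp, a gene of lipogenesis, rose from 4.72 and 0.515 CPM at 1 day to 17.5 and 14.02 CPM at 3 weeks (log2 fold change 3.05 ± 0.54). Cox6a2, a subunit of cytochrome c oxidase, rose from 27.3 and 8.96 CPM at 1 day to 45.4 and 248 CPM at 3 weeks (log2 fold change 3.14 ± 0.72). Cox6a2 had the highest adjusted p (0.00925) of the called genes whose log2 fold change is given here, and Cst7 the lowest (5.48e-05). Cox6a2 lost its call without slice 1 day replicate 2 (adjusted p = 0.0927) and without slice 3 weeks replicate 2 (adjusted p = 0.0596). Slc1a3 had a log2 fold change of 4.67 without slice 1 day replicate 1 and 2.60 without slice 1 day replicate 2. Thrsp had a log2 fold change of 4.89 without slice 1 day replicate 1 and 1.73 without slice 1 day replicate 2. Cox6a2 had a log2 fold change of 4.04 without slice 1 day replicate 1, 2.45 without slice 1 day replicate 2, 3.93 without slice 3 weeks replicate 1 and 1.48 without slice 3 weeks replicate 2.

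Most homeostatic genes rose. Of the 34 genes on that list, 26 rose, 1 fell and 7 passed neither test (76.5% higher and 2.94% lower, against 13.9% and 12.8% of all genes tested), with a median log2 fold change of 1.82. The list held 1.36% and 0.966% of UMIs at 1 day and 3.798% and 3.23% at 3 weeks. Gpr34, a receptor for lysophosphatidylserine, rose from 191 and 154 CPM at 1 day to 757 and 615 CPM at 3 weeks (log2 fold change 1.99 ± 0.17). P2ry13, another ADP receptor, rose from 52.4 and 43.5 CPM at 1 day to 295 and 239.6 CPM at 3 weeks (log2 fold change 2.48 ± 0.20). Serpine2, a secreted protease inhibitor, rose from 447 and 448 CPM at 1 day to 1441 and 1661 CPM at 3 weeks (log2 fold change 1.79 ± 0.15). Tmem119, the membrane protein used to tell microglia from other macrophages, rose from 100.1 and 44.8 CPM at 1 day to 535 and 389 CPM at 3 weeks (log2 fold change 2.69 ± 0.40, adjusted p = 0.00118). Siglech, a sialic acid binding lectin, rose from 54.3 and 30.2 CPM at 1 day to 119 and 203 CPM at 3 weeks (log2 fold change 1.96 ± 0.41). Olfml3, a secreted microglial protein, rose from 293 and 212 CPM at 1 day to 2093 and 1383 CPM at 3 weeks (log2 fold change 2.79 ± 0.26). Cx3cr1, the receptor for neuronal fractalkine, rose from 479.6 and 498 CPM at 1 day to 1156 and 994 CPM at 3 weeks (log2 fold change 1.14 ± 0.16). Fcrls was at 1061 and 1133 CPM at 1 day and 2070.4 and 1060.2 CPM at 3 weeks and was not called (log2 fold change 0.51 ± 0.26, adjusted p = 0.153), with overlapping groups. Bank1, an adaptor best known from B cells, was the 1 member that fell, at 7.08 and 7.01 CPM at 1 day and 2.85 and 1.02 CPM at 3 weeks (log2 fold change -2.08 ± 0.45, adjusted p = 0.00679). Bank1 had the highest adjusted p (0.00679) of the called genes whose log2 fold change is given here, and Gpr34 the lowest (8.16e-05). Siglech lost its call without slice 1 day replicate 2 (adjusted p = 0.0648). Fcrls was called without slice 3 weeks replicate 2 (adjusted p = 0.00284). Bank1 lost its call without slice 1 day replicate 2 (adjusted p = 0.0559) and without slice 3 weeks replicate 2 (adjusted p = 0.0566). Tmem119 had a log2 fold change of 3.36 without slice 1 day replicate 1. Bank1 had a log2 fold change of -2.77 without slice 3 weeks replicate 1 and -1.29 without slice 3 weeks replicate 2.

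Most transcription factors of microglia passed neither test. Of 33 genes, 7 rose (4 without slice 1 day replicate 2, 11 within 1 study label), 6 fell and 20 passed neither test (21.2% higher and 18.2% lower, against 13.9% and 12.8% of all genes tested), with a median log2 fold change of 0.13. Sall1, the zinc finger protein that maintains microglial identity, rose from 15.2 and 12.1 CPM at 1 day to 49.2 and 59.9 CPM at 3 weeks (log2 fold change 2.03 ± 0.23, adjusted p = 0.000333). Its relative Sall3 rose from 8.13 and 6.49 CPM at 1 day to 23.5 and 19.1 CPM at 3 weeks (log2 fold change 1.57 ± 0.23). Bhlhe41 rose from 67.4 and 69.3 CPM at 1 day to 185 and 294 CPM at 3 weeks (log2 fold change 1.81 ± 0.23). Maf rose from 87.5 and 65.5 CPM at 1 day to 150.3 and 144 CPM at 3 weeks (log2 fold change 0.95 ± 0.17). Some factors went the other way. Nr1h3, the oxysterol receptor LXR alpha, fell from 5.504 and 3.81 CPM at 1 day to 0.129 and 0.512 CPM at 3 weeks (log2 fold change -3.51 ± 0.52). Tfec fell from 15.7 and 14.1 CPM at 1 day to 4.27 and 1.397 CPM at 3 weeks (log2 fold change -2.57 ± 0.49). Irf7 fell from 38.3 and 41.2 CPM at 1 day to 12.2 and 8.11 CPM at 3 weeks (log2 fold change -2.01 ± 0.37). Tfec had the highest adjusted p (0.00373) of the called genes whose log2 fold change is given here, and Sall1 the lowest (0.000333). Nr1h3 had a log2 fold change of -4.99 without slice 3 weeks replicate 2. Tfec had a log2 fold change of -3.36 with the study label as a covariate, -3.40 without slice 3 weeks replicate 1 and -1.78 without slice 3 weeks replicate 2.

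In the TGF-beta pathway, on which homeostatic genes depend, more genes rose than fell. Of 22 genes in the files 18 were tested, of which 9 rose (5 without slice 1 day replicate 2), 1 fell and 8 passed neither test (50% higher and 5.56% lower, against 13.9% and 12.8% of all genes tested), with a median log2 fold change of 0.82. Both receptor chains rose. Tgfbr2 rose from 28.8 and 34.7 CPM at 1 day to 78.3 and 84.5 CPM at 3 weeks (log2 fold change 1.35 ± 0.19, adjusted p = 0.000757). Tgfbr1 rose from 87.8 and 58.9 CPM at 1 day to 147 and 168 CPM at 3 weeks (log2 fold change 1.11 ± 0.18). Among targets, Smad7, the inhibitory Smad, rose from 21.2 and 24.8 CPM at 1 day to 55.1 and 65.9 CPM at 3 weeks (log2 fold change 1.38 ± 0.21). The ligand Tgfb1 was at 264 and 223 CPM at 1 day and 369.97 and 286 CPM at 3 weeks and was not called (log2 fold change 0.43 ± 0.17, adjusted p = 0.0789). Tgfbi, a secreted matrix protein named for its induction by TGF-beta and also carried by monocytes, fell from 629.6 and 589 CPM at 1 day to 62.1 and 42.6 CPM at 3 weeks (log2 fold change -3.55 ± 0.21). In the cells left its log2 fold change was -3.53 ± 0.21 (adjusted p = 2.67e-05). Tgfbr1 had the highest adjusted p (0.00187) of the called genes whose log2 fold change is given here, and Tgfbi the lowest (2.70e-05). Tgfb1 was called without slice 3 weeks replicate 2 (adjusted p = 0.0326).

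Most genes of the disease-associated state rose as well, with a few falls. Of 37 genes, 24 rose, 4 fell (1 without slice 1 day replicate 2) and 9 passed neither test (64.9% higher and 10.8% lower, against 13.9% and 12.8% of all genes tested), with a median log2 fold change of 1.27. Beside Cst7, Ank and Serpine2, the lowest adjusted p among those that rose was that of Ctsd, the aspartic protease cathepsin D, which rose from 3448 and 3002 CPM at 1 day to 25962 and 19599.9 CPM at 3 weeks (log2 fold change 2.82 ± 0.20, adjusted p = 5.78e-05). The 4 members that fell were Spp1, Lpl, Fabp5 and Ch25h. Spp1, the secreted phosphoprotein osteopontin, fell from 10974 and 11538 CPM at 1 day to 4391 and 1253 CPM at 3 weeks (log2 fold change -1.996 ± 0.48, adjusted p = 0.0114). Lpl, lipoprotein lipase, fell from 2645 and 2795 CPM at 1 day to 1125 and 1593 CPM at 3 weeks (log2 fold change -1.001 ± 0.24). Fabp5, a fatty acid carrier, fell from 906 and 672 CPM at 1 day to 374 and 289 CPM at 3 weeks (log2 fold change -1.25 ± 0.28). Ch25h, which makes an oxysterol, fell from 47.96 and 75.2 CPM at 1 day to 30.1 and 7.55 CPM at 3 weeks (log2 fold change -1.79 ± 0.49). Fth1, the ferritin heavy chain, was at 11339 and 11289.8 CPM at 1 day and 9607 and 8987 CPM at 3 weeks and was not called (log2 fold change -0.28 ± 0.16, adjusted p = 0.205). Ch25h had the highest adjusted p (0.02) of the called genes whose log2 fold change is given here, and Ctsd the lowest (5.78e-05). Spp1 lost its call without slice 1 day replicate 2 (adjusted p = 0.055). Lpl lost its call without slice 1 day replicate 2 (adjusted p = 0.0761). Ch25h lost its call without slice 1 day replicate 2 (adjusted p = 0.158) and in a fit of only the 4 libraries (adjusted p = 0.0754). Spp1 had a log2 fold change of -3.17 without slice 3 weeks replicate 1 and -1.35 without slice 3 weeks replicate 2. Ch25h had a log2 fold change of -2.96 with the study label as a covariate, -3.06 without slice 3 weeks replicate 1 and -1.04 without slice 3 weeks replicate 2.

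Most lysosomal genes rose. Of 49 genes tested, 39 rose, 2 fell and 8 passed neither test (79.6% higher and 4.08% lower, against 13.9% and 12.8% of all genes tested), with a median log2 fold change of 1.09. Cd68, the lysosomal glycoprotein used as a marker of phagocytic load, rose from 784 and 696 CPM at 1 day to 2544 and 2453 CPM at 3 weeks (log2 fold change 1.76 ± 0.15, adjusted p = 8.16e-05). Hexa, a subunit of beta-hexosaminidase, rose from 403 and 325 CPM at 1 day to 1298 and 1443 CPM at 3 weeks (log2 fold change 1.91 ± 0.16). Ctsf, cathepsin F, rose from 48.5 and 35.1 CPM at 1 day to 170.4 and 178 CPM at 3 weeks (log2 fold change 2.07 ± 0.17). Naglu, an enzyme of heparan sulfate breakdown, rose from 59.8 and 52.96 CPM at 1 day to 229.6 and 263 CPM at 3 weeks (log2 fold change 2.13 ± 0.19). Glb1, lysosomal beta-galactosidase, rose from 37.5 and 32.6 CPM at 1 day to 106 and 136 CPM at 3 weeks (log2 fold change 1.80 ± 0.17). Ctsl was at 3806 and 3703 CPM at 1 day and 5089.5 and 4089 CPM at 3 weeks and was not called (log2 fold change 0.29 ± 0.21, adjusted p = 0.31). The 2 members that fell were Ctsc and Atp6v1b2. Ctsc, cathepsin C, fell from 1061 and 1135 CPM at 1 day to 705 and 482 CPM at 3 weeks (log2 fold change -0.89 ± 0.19). Atp6v1b2, a subunit of the proton pump, fell from 241 and 252 CPM at 1 day to 164 and 134 CPM at 3 weeks (log2 fold change -0.72 ± 0.14). Ctsc had the highest adjusted p (0.00661) of the called genes whose log2 fold change is given here, and Cd68 the lowest (8.16e-05). Ctsc lost its call without slice 1 day replicate 2 (adjusted p = 0.055). Atp6v1b2 lost its call without slice 3 weeks replicate 2 (log2 fold change -0.58).

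Many lysosomal genes carry a CLEAR box, the site bound by the factor TFEB and its relatives, so the promoters in the RefSeq table (build GRCm38.p6, from 250 bases before to 50 after the start) were searched for the letters GTCACGTG on both strands. Of 12157 genes tested 9168 had a promoter in the table. The letters were in 4.94% of them, in 5.68% of genes called higher, in 4.37% of genes called lower, and in 28.9% of the 38 lysosomal genes with a promoter. Among those, 8 of 30 that rose and 3 of 7 that were not called held a match. Ctsd, Naglu and Glb1 are shown because they had the largest log2 fold changes among the matched lysosomal genes called higher. Capitals mark the matched letters on either strand, and matches begin at bases 6 and 153 in Ctsd, 176 in Naglu and 201 in Glb1, where an AP-1 match (TGACTCA, either strand) overlaps it.

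Ctsd promoter (chr7:142387778-142388077, minus strand): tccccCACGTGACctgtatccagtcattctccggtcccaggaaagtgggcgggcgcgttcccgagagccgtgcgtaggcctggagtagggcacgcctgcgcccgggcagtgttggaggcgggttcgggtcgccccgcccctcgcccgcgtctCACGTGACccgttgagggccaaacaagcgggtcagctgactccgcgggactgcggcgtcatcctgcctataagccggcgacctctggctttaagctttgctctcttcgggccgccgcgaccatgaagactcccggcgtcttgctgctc
Naglu promoter (chr11:101069844-101070143, plus strand): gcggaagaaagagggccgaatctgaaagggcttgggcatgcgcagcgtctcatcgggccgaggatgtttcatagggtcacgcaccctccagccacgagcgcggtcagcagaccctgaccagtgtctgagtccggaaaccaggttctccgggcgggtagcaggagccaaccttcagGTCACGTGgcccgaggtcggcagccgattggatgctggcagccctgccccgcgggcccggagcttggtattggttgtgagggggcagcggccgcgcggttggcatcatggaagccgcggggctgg
Glb1 promoter (chr9:114400828-114401127, plus strand): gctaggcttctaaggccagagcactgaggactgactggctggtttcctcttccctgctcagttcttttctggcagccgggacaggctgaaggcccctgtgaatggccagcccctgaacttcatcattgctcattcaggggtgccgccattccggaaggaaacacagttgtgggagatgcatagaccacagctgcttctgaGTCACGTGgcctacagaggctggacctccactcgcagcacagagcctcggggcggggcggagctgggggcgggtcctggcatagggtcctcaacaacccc

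Of 15 complement genes tested, 5 rose (3 without slice 1 day replicate 2), 2 fell (5 without slice 3 weeks replicate 1, 4 within 1 study label) and 8 passed neither test (33.3% higher and 13.3% lower, against 13.9% and 12.8% of all genes tested), with a median log2 fold change of 0.49. The 3 chains of C1q, the recognition protein that tags debris and synapses, all rose. C1qa rose from 2990.3 and 2719 CPM at 1 day to 12023 and 9696 CPM at 3 weeks (log2 fold change 1.93 ± 0.17, adjusted p = 8.97e-05). C1qb rose from 3537 and 3281 CPM at 1 day to 10693 and 7305 CPM at 3 weeks (log2 fold change 1.4003 ± 0.19). C1qc rose from 2754 and 2466 CPM at 1 day to 10169 and 8759 CPM at 3 weeks (log2 fold change 1.86 ± 0.15). Itgb2, the shared chain of complement receptors, rose from 229 and 209 CPM at 1 day to 468 and 329 CPM at 3 weeks (log2 fold change 0.87 ± 0.18). Of the alternative pathway, Cfb fell from 13.1 and 7.93 CPM at 1 day to 0.517 and 0.512 CPM at 3 weeks (log2 fold change -4.30 ± 0.60). Cfp, properdin, fell from 83.9 and 70.7 CPM at 1 day to 17.98 and 3.17 CPM at 3 weeks (log2 fold change -2.98 ± 0.63). The receptor gene C3ar1 was at 709.5 and 647 CPM at 1 day and 531 and 447 CPM at 3 weeks and was not called (log2 fold change -0.47 ± 0.19, adjusted p = 0.079). Cfp had the highest adjusted p (0.00623) of the called genes whose log2 fold change is given here, and C1qc the lowest (8.16e-05). Itgb2 lost its call without slice 1 day replicate 2 (adjusted p = 0.0569) and without slice 3 weeks replicate 1 (log2 fold change 0.58). C3ar1 was called without slice 3 weeks replicate 1 (adjusted p = 0.0438) and in the cells left (adjusted p = 0.0362). Cfp had a log2 fold change of -4.60 with the study label as a covariate, -4.61 without slice 3 weeks replicate 1 and -2.09 without slice 3 weeks replicate 2.

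Phagocytic and scavenger receptors split. Of 28 tested, 13 rose, 9 fell and 6 passed neither test, with a median log2 fold change of 0.41. Shares were 46.4% higher and 32.1% lower, against 13.9% and 12.8% of all genes tested. Trem2, the lipid-sensing receptor of the disease-associated state, rose from 918 and 827 CPM at 1 day to 3193 and 3823 CPM at 3 weeks (log2 fold change 2.01 ± 0.17, adjusted p = 8.16e-05). Its adaptor Tyrobp rose from 2836 and 2517 CPM at 1 day to 5670.1 and 6365 CPM at 3 weeks (log2 fold change 1.17 ± 0.14). Havcr2, encoding TIM-3, rose from 31.7 and 22.9 CPM at 1 day to 114 and 131 CPM at 3 weeks (log2 fold change 2.19 ± 0.20). Lrp1, an endocytic receptor for apolipoprotein E, rose from 123 and 113 CPM at 1 day to 265 and 257 CPM at 3 weeks (log2 fold change 1.15 ± 0.14). Class A and B scavenger receptors were among those that fell. Msr1 fell from 284 and 315 CPM at 1 day to 36.997 and 22.9 CPM at 3 weeks (log2 fold change -3.34 ± 0.23). Marco fell from 38.3 and 19.2 CPM at 1 day to 0.259 and 1.397 CPM at 3 weeks (log2 fold change -4.77 ± 0.80). Cd36, which takes up oxidised lipids, fell from 181 and 190.1 CPM at 1 day to 10.5 and 9.04 CPM at 3 weeks (log2 fold change -4.26 ± 0.22). Trem3 fell from 28.05 and 33.7 CPM at 1 day to 0.388 and 0.186 CPM at 3 weeks (log2 fold change -6.94 ± 0.72). At 1 day Cd36 was at 34.96 and 38.7 CPM in the neutrophil cells and at 201 and 209.6 CPM in the cells left, and Msr1 at 34.96 and 55.4 CPM against 317 and 346 CPM, so both were higher in the cells left. Trem3 was higher in the neutrophil cells, at 297 and 289 CPM against 6.14 and 7.61 CPM. Fcer1g was at 3251 and 2929.8 CPM at 1 day and 3816 and 3477 CPM at 3 weeks and was not called (log2 fold change 0.24 ± 0.14, adjusted p = 0.226). Marco had the highest adjusted p (0.00245) of the called genes whose log2 fold change is given here, and Cd36 the lowest (9.34e-06). Marco had a log2 fold change of -6.67 without slice 3 weeks replicate 2. Trem3 had a log2 fold change of -6.28 without slice 3 weeks replicate 2 and -4.70 in the cells left.

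Genes of lipid handling moved both ways. Of 27 genes, 11 rose (7 without slice 1 day replicate 2), 7 fell and 9 passed neither test (40.7% higher and 25.9% lower, against 13.9% and 12.8% of all genes tested), with a median log2 fold change of 0.23. Apoe, the apolipoprotein that microglia load with cholesterol, rose from 7536 and 6352 CPM at 1 day to 27036 and 20517 CPM at 3 weeks (log2 fold change 1.78 ± 0.22, adjusted p = 0.000469). Its neighbour Apoc4 rose from 1.57 and 1.75 CPM at 1 day to 12.4 and 19.5 CPM at 3 weeks (log2 fold change 3.25 ± 0.31). Npc2, which moves cholesterol out of lysosomes, rose from 681 and 603 CPM at 1 day to 2055 and 2551 CPM at 3 weeks (log2 fold change 1.84 ± 0.16). Plin2, the coat protein of lipid droplets, fell from 1687 and 1661 CPM at 1 day to 366 and 316 CPM at 3 weeks (log2 fold change -2.30 ± 0.16). Abca1, a cholesterol exporter, was at 98.3 and 101 CPM at 1 day and 87.2 and 136 CPM at 3 weeks and was not called (log2 fold change 0.17 ± 0.20, adjusted p = 0.551). Of 22 cholesterol synthesis genes, 3 rose (1 without slice 1 day replicate 1, 1 without slice 1 day replicate 2), 0 fell (3 without slice 3 weeks replicate 1, 3 within 1 study label) and 19 passed neither test (13.6% higher and 0% lower, against 13.9% and 12.8% of all genes tested), with a median log2 fold change of 0.09. Dhcr7, of the last step of that pathway, rose from 15.99 and 19.3 CPM at 1 day to 45.1 and 41.1 CPM at 3 weeks (log2 fold change 1.27 ± 0.18). Dhcr7 had the highest adjusted p (0.000785) of the called genes whose log2 fold change is given here, and Plin2 the lowest (5.78e-05).

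**Figure D2:**
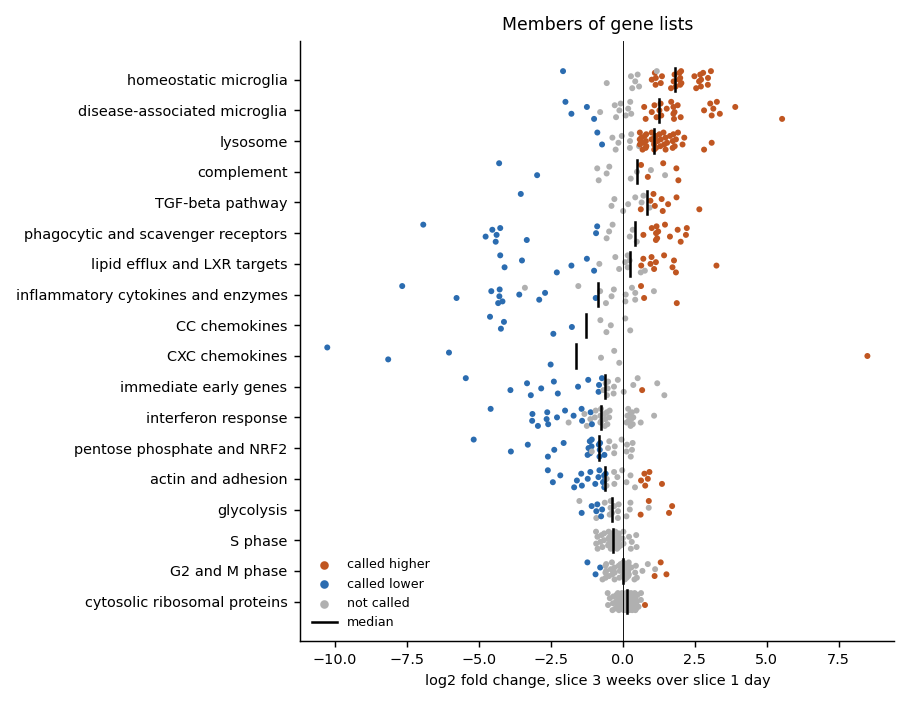
Log2 fold change (3 weeks over 1 day) of every tested member of 18 gene lists, 1 point per gene, coloured by whether it was called higher (orange), called lower (blue) or neither (grey), with the median of each list as a black line. The homeostatic (26 of 34 higher), disease-associated (24 of 37) and lysosomal (39 of 49) points lie mostly right of 0 and the NRF2 (17 of 28 lower) and actin (17 of 32 lower) points mostly left of it.

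Genes best known from neutrophils were among the largest falls. Ngp, neutrophilic granule protein, was at 21.8 and 1879.6 CPM at 1 day and at 0 in both 3 week libraries, and Retnlg, a resistin-like protein of neutrophils, at 306 and 871 CPM and at 0. The 1 day libraries were far apart for both, and no fold is given. The stefin A genes, inhibitors of cysteine proteases that neutrophils carry, were at 0 or 1 UMI at 3 weeks: BC100530 was at 664 and 3187 CPM at 1 day and 0 and 0 CPM at 3 weeks, Stfa1 at 885 and 2684 CPM at 1 day and 0 and 0 CPM at 3 weeks and Gm5483 at 759 and 2399.7 CPM at 1 day and 0 and 0 CPM at 3 weeks. These and Stfa2, Stfa2l1 and Stfa3 are near-identical copies, so the share of each is uncertain. S100a9 was at 2049.6 and 6705 CPM at 1 day and 0.129 and 0.14 CPM at 3 weeks and S100a8 at 4884 and 11111 CPM at 1 day and 3.23 and 0.885 CPM at 3 weeks. Within slice 1 day the neutrophil cells held S100a9 at 41920.0 and 67120.0 CPM and the cells left at 179.5 and 1482 CPM. S100a8 and S100a9 had been used to choose the neutrophil cells, so this difference follows from the choice. Camp, cathelicidin, was at 2.097 and 980.1 CPM at 1 day and 0.129 and 0 CPM at 3 weeks, and Chil3, a chitinase-like lectin, at 6.29 and 183 CPM at 1 day and 0 and 0 CPM at 3 weeks. Chil3 was also counted among the monocyte markers above, to whose sum at 1 day it gave 6.55 and 187 CPM before scaling. 2010005H15Rik, a stefin-like gene, was at 329 and 626 CPM at 1 day and 0.129 and 0.0466 CPM at 3 weeks. Ngp lost its call without slice 1 day replicate 2 (adjusted p = 0.12), without slice 3 weeks replicate 2 (adjusted p = 0.0853), within 1 study label (adjusted p = 0.0533) and with the study label as a covariate (adjusted p = 0.0506). Camp lost its call without slice 1 day replicate 2 (adjusted p = 0.515), without slice 3 weeks replicate 1 (adjusted p = 0.0557), without slice 3 weeks replicate 2 (adjusted p = 0.119), within 1 study label (adjusted p = 0.07) and with the study label as a covariate (adjusted p = 0.0594). Chil3 lost its call without slice 1 day replicate 2 (adjusted p = 0.211) and without slice 3 weeks replicate 2 (adjusted p = 0.0987).

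S100a11, a calcium-binding protein, fell from 343 and 456 CPM at 1 day to 3.105 and 3.82 CPM at 3 weeks (log2 fold change -6.82 ± 0.95, adjusted p = 0.000815). It was highest in the neutrophil cells, at 4906 and 3979 CPM against 76.7 and 112 CPM in the cells left, where its log2 fold change was -4.69 ± 0.40 (adjusted p = 5.93e-05). Free neutrophil RNA and the cells' own S100a11 RNA cannot be told apart at these levels. The plot by class of cell shows these levels side by side.

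**Figure D3:**
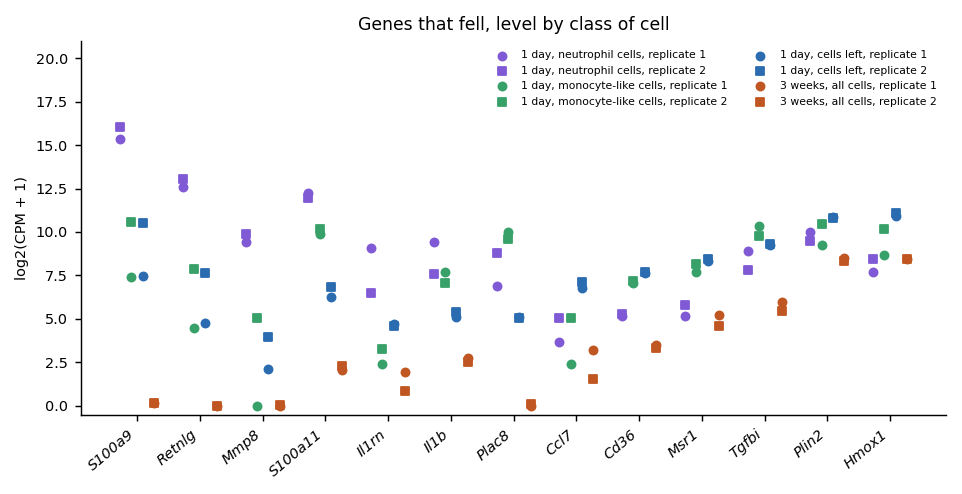
Log2(CPM + 1) of 13 genes that fell, in the neutrophil cells (purple), the monocyte-like cells (green) and the cells left (blue) of the 1 day libraries, without scaling beyond the total, and in all cells of the 3 week libraries (orange, scaled), with circles for replicate 1 and squares for replicate 2. S100a9, Retnlg and Mmp8 are highest in the purple points, Ccl7, Cd36 and Msr1 are higher in the blue than in the purple points, and for all 13 genes both orange points lie below both blue points. S100a9 had been used to choose the purple cells.

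More genes of inflammatory cytokines and their enzymes fell than rose. Of 26 tested, 3 rose (0 without slice 1 day replicate 1, 0 without slice 1 day replicate 2, 1 with scaling by library size alone, 0 in a fit of only the 4 libraries), 11 fell and 12 passed neither test (11.5% higher and 42.3% lower, against 13.9% and 12.8% of all genes tested), with a median log2 fold change of -0.87, and in the cells left 2 rose and 9 fell of 24. Il1b, the cytokine interleukin 1 beta, fell from 71.8 and 56.3 CPM at 1 day to 5.82 and 4.84 CPM at 3 weeks (log2 fold change -3.60 ± 0.46, adjusted p = 0.000559). Il1rn, its natural antagonist, fell from 46.4 and 27.1 CPM at 1 day to 2.85 and 0.792 CPM at 3 weeks (log2 fold change -4.57 ± 0.48). In the cells left the log2 fold change was -2.80 ± 0.43 (adjusted p = 0.00114) for Il1b. For Il1rn it was -3.91 ± 0.46 (adjusted p = 0.000272) there. Ltb, lymphotoxin beta, fell from 18.9 and 15.1 CPM at 1 day to 0.776 and 0.885 CPM at 3 weeks (log2 fold change -4.29 ± 0.51). Ptges, which makes prostaglandin E2, fell from 11.5 and 18.03 CPM at 1 day to 0.517 and 0.978 CPM at 3 weeks (log2 fold change -4.18 ± 0.47). The genes that rose were of low level or small change. Il6 rose from 1.83 and 1.65 CPM at 1 day to 3.36 and 8.66 CPM at 3 weeks (log2 fold change 1.87 ± 0.49). Il18 rose from 11.8 and 11.4 CPM at 1 day to 19.02 and 17.002 CPM at 3 weeks (log2 fold change 0.63 ± 0.17). Il6 had the highest adjusted p (0.0194) of the called genes whose log2 fold change is given here, and Il1rn the lowest (0.000192). Il6 lost its call without slice 1 day replicate 1 (adjusted p = 0.0643), without slice 1 day replicate 2 (adjusted p = 0.158), without slice 3 weeks replicate 2 (adjusted p = 0.148) and in a fit of only the 4 libraries (adjusted p = 0.0588). Il18 lost its call without slice 1 day replicate 1 (adjusted p = 0.0729), without slice 1 day replicate 2 (adjusted p = 0.134), without slice 3 weeks replicate 1 (log2 fold change 0.55), within 1 study label (log2 fold change 0.55), with the study label as a covariate (log2 fold change 0.51), with scaling by library size alone (log2 fold change 0.55) and in a fit of only the 4 libraries (adjusted p = 0.0917). Il1rn had a log2 fold change of -5.49 without slice 3 weeks replicate 1 and -3.64 without slice 3 weeks replicate 2. Ltb had a log2 fold change of -2.12 in the cells left. Ptges had a log2 fold change of -4.83 without slice 3 weeks replicate 2. Il6 had a log2 fold change of 0.98 without slice 3 weeks replicate 2.

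Several chemokines that draw monocytes and neutrophils fell. Of 10 CC chemokines tested, 0 rose, 5 fell (3 without slice 1 day replicate 2, 3 without slice 3 weeks replicate 2) and 5 passed neither test, with a median log2 fold change of -1.28. Shares were 0% higher and 50% lower, against 13.9% and 12.8% of all genes tested. Ccl7 fell from 92.5 and 123 CPM at 1 day to 8.41 and 1.86 CPM at 3 weeks (log2 fold change -4.62 ± 0.73). Ccl2, which attracts monocytes through Ccr2, fell from 383 and 567 CPM at 1 day to 135 and 44.9 CPM at 3 weeks (log2 fold change -2.42 ± 0.66). Ccl24, an eosinophil attractant, fell from 32.5 and 36.8 CPM at 1 day to 3.49 and 1.12 CPM at 3 weeks (log2 fold change -4.13 ± 0.41). Ccl12 was at 997 and 1677 CPM at 1 day and 762 and 793 CPM at 3 weeks and was not called (log2 fold change -0.78 ± 0.27, adjusted p = 0.0523). Of 8 CXC chemokines tested, 1 rose, 4 fell and 3 passed neither test (12.5% higher and 50% lower, against 13.9% and 12.8% of all genes tested), with a median log2 fold change of -1.64. Cxcl2, a ligand of the neutrophil receptor Cxcr2, fell from 95.4 and 68.5 CPM at 1 day to 1.16 and 1.26 CPM at 3 weeks (log2 fold change -6.04 ± 0.57, adjusted p = 0.000175). Cxcl3 was at 13.4 and 10.2 CPM at 1 day and at 0 in both 3 week libraries, at least 114-fold lower against a floor of 3 counts over the group. Pf4, a chemokine of platelets and one of the border macrophage markers above, fell from 242 and 210.3 CPM at 1 day to 65.1 and 15.5 CPM at 3 weeks (log2 fold change -2.51 ± 0.55). The 1 rise was that of Cxcl13, which attracts B cells, with 0.262 and 0 CPM at 1 day and 30.01 and 30.8 CPM at 3 weeks (log2 fold change 8.49 ± 1.52, adjusted p = 0.00451). Its counts at 1 day were under the floor of 3 used for Cxcl3, so the size of this fold is uncertain. After thinning, a UMI was found in 1.06% and 0.922% of cells at 3 weeks and in 0 of 405 and 0 of 854 cells left at 1 day, which allows shares of up to 0.741% and 0.351%. Ccl2 had the highest adjusted p (0.0202) of the called genes whose log2 fold change is given here, and Ccl24 the lowest (0.000141). Ccl2 lost its call without slice 1 day replicate 2 (adjusted p = 0.0997) and without slice 3 weeks replicate 2 (adjusted p = 0.117). Ccl12 was called without slice 1 day replicate 1 (adjusted p = 0.0202), with the study label as a covariate (adjusted p = 0.0407), with scaling by library size alone (adjusted p = 0.0391), in the cells left (adjusted p = 0.0238), by DESeq2's test (adjusted p = 0.0194) and with DESeq2's size factors (adjusted p = 0.0465). Cxcl3 lost its call by DESeq2's test (adjusted p = 0.112). Cxcl13 lost its call without slice 1 day replicate 2 (adjusted p = 0.0624) and by DESeq2's test (adjusted p = 0.197). Ccl7 had a log2 fold change of -5.995 with the study label as a covariate, -5.86 without slice 3 weeks replicate 1 and -3.68 without slice 3 weeks replicate 2. Ccl2 had a log2 fold change of -3.37 with the study label as a covariate, -3.41 without slice 3 weeks replicate 1 and -1.81 without slice 3 weeks replicate 2. Ccl24 had a log2 fold change of -4.96 without slice 3 weeks replicate 1 and -3.31 without slice 3 weeks replicate 2. Pf4 had a log2 fold change of -3.82 with the study label as a covariate, -3.87 without slice 3 weeks replicate 1 and -1.79 without slice 3 weeks replicate 2. Cxcl13 had a log2 fold change of 6.82 without slice 1 day replicate 2.

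The kappa-B site of the factor NF-kB (GGAATTTCC, GGACTTTCC or GGAAATTCC, either strand) was in 1.04% of promoters of all genes tested, in 1.01% of genes called higher and in 1.43% of genes called lower. Cxcl2 had the largest fall among CXC chemokines that held it and were called lower both in all cells and in the cells left. It is shown for that reason, with the match from base 155 in capitals.

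Cxcl2 promoter (chr5:90903649-90903948, plus strand): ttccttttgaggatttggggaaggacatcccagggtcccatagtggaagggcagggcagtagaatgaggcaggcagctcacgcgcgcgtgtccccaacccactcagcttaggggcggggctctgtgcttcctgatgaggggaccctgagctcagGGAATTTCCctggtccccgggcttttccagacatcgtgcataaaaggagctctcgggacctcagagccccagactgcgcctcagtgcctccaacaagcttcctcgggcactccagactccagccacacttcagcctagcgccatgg

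Most receptors for these signals passed neither test. Of 29 chemokine and cytokine receptors tested, 5 rose (3 without slice 1 day replicate 2), 8 fell (4 without slice 1 day replicate 1, 5 in the cells left) and 16 passed neither test (17.2% higher and 27.6% lower, against 13.9% and 12.8% of all genes tested), with a median log2 fold change of -0.27. Ccr2 fell from 24.6 and 17.7 CPM at 1 day to 0.647 and 0.326 CPM at 3 weeks (log2 fold change -5.59 ± 0.60, adjusted p = 0.00022). Cxcr2 fell from 52.7 and 31.4 CPM at 1 day to 0.129 and 0.14 CPM at 3 weeks (log2 fold change -8.15 ± 0.96). The decoy receptor Il1r2 fell from 81.3 and 42.2 CPM at 1 day to 0 and 1.44 CPM at 3 weeks (log2 fold change -5.95 ± 0.65). Ccr2 had been used to choose the monocyte-like cells. At 1 day Cxcr2 was at 1060.0 and 312 CPM in the neutrophil cells and 4.296 and 6.18 CPM in the cells left. Il4ra, the receptor for interleukins 4 and 13, fell from 150.2 and 133 CPM at 1 day to 73.99 and 45.98 CPM at 3 weeks (log2 fold change -1.25 ± 0.21). Ifnar2, a chain of the interferon receptor, rose from 132 and 107 CPM at 1 day to 233 and 221 CPM at 3 weeks (log2 fold change 0.92 ± 0.16). Il6st, the shared signalling chain gp130, rose from 33.02 and 31.01 CPM at 1 day to 49.2 and 75.9 CPM at 3 weeks (log2 fold change 0.98 ± 0.20). Ifngr2 was at 201 and 168 CPM at 1 day and 202 and 162 CPM at 3 weeks and was not called (log2 fold change -0.02 ± 0.17, adjusted p = 0.948). Il6st had the highest adjusted p (0.00486) of the called genes whose log2 fold change is given here, and Ccr2 the lowest (0.00022). Il6st lost its call without slice 1 day replicate 2 (adjusted p = 0.0559). Ccr2 had a log2 fold change of -4.97 without slice 3 weeks replicate 2 and -2.52 in the cells left. Cxcr2 had a log2 fold change of -5.15 in the cells left. Il1r2 had a log2 fold change of -3.30 in the cells left.

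Immediate early genes, which are switched on within minutes of a stimulus and also by tissue dissociation, fell more often than they rose. Of 26 tested, 1 rose, 12 fell (7 without slice 1 day replicate 1) and 13 passed neither test (3.85% higher and 46.1% lower, against 13.9% and 12.8% of all genes tested), with a median log2 fold change of -0.64, and in the cells left 1 rose and 9 fell of 25. Among those that fell were dual-specificity phosphatases, which switch off MAP kinases. Dusp1 fell from 102 and 58.4 CPM at 1 day to 10.996 and 6.85 CPM at 3 weeks (log2 fold change -3.20 ± 0.41, adjusted p = 0.000549). Dusp2 fell from 11.8 and 16.8 CPM at 1 day to 3.88 and 1.96 CPM at 3 weeks (log2 fold change -2.40 ± 0.39). Dusp5 fell from 21.2 and 15.2 CPM at 1 day to 0.905 and 1.35 CPM at 3 weeks (log2 fold change -3.91 ± 0.39). Fosl1, an AP-1 subunit, fell from 4.72 and 2.58 CPM at 1 day to 0.129 and 0.0466 CPM at 3 weeks (log2 fold change -5.46 ± 0.85). Its counts at 3 weeks were under the floor of 3 over the group, so the size of this fold is uncertain. Junb was at 386 and 350.3 CPM at 1 day and 370.2 and 282 CPM at 3 weeks and was not called (log2 fold change -0.18 ± 0.17, adjusted p = 0.47). The AP-1 letters were in 5.21% of promoters of genes called higher and 6.30% of those called lower, against 4.52% of all tested, and the CRE site (TGACGTCA) in 2.80%, 3.11% and 3.76%. Of 26 NF-kB feedback genes, 2 rose (4 without slice 3 weeks replicate 1, 4 within 1 study label), 7 fell (4 without slice 1 day replicate 1) and 17 passed neither test (7.69% higher and 26.9% lower, against 13.9% and 12.8% of all genes tested), with a median log2 fold change of -0.03. Tnip3, an inhibitor of NF-kB signalling, fell from 31.2 and 24.7 CPM at 1 day to 1.68 and 2.14 CPM at 3 weeks (log2 fold change -3.81 ± 0.28). Sod2, mitochondrial superoxide dismutase, fell from 201 and 219 CPM at 1 day to 88.4 and 83.7 CPM at 3 weeks (log2 fold change -1.29 ± 0.13). Cd83, a costimulatory surface protein, rose from 62.9 and 65.6 CPM at 1 day to 247 and 188 CPM at 3 weeks (log2 fold change 1.76 ± 0.17). Fosl1 had the highest adjusted p (0.00235) of the called genes whose log2 fold change is given here, and Tnip3 the lowest (8.16e-05). Fosl1 had a log2 fold change of -4.63 without slice 3 weeks replicate 2.

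Most Toll-like receptor and inflammasome genes passed neither test. Of 27, 4 rose (2 without slice 1 day replicate 2), 5 fell (3 without slice 1 day replicate 1, 3 without slice 1 day replicate 2, 2 without slice 3 weeks replicate 2, 3 in a fit of only the 4 libraries) and 18 passed neither test (14.8% higher and 18.5% lower, against 13.9% and 12.8% of all genes tested), with a median log2 fold change of 0.0004. Tlr7, which senses single-stranded RNA, rose from 27.8 and 23.1 CPM at 1 day to 49.2 and 64.8 CPM at 3 weeks (log2 fold change 1.18 ± 0.19). Myd88, the adaptor of most Toll-like receptors, fell from 55.6 and 53.8 CPM at 1 day to 22.6 and 13.2 CPM at 3 weeks (log2 fold change -1.64 ± 0.24). Pycard, the inflammasome adaptor ASC, was at 590.3 and 654 CPM at 1 day and 549 and 522 CPM at 3 weeks and was not called (log2 fold change -0.22 ± 0.13, adjusted p = 0.233). Tlr7 had the highest adjusted p (0.00152) of the called genes whose log2 fold change is given here, and Myd88 the lowest (0.000994).

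Interferon response genes fell or passed neither test in the main fit. Of 44 tested, 0 rose (2 within 1 study label), 14 fell (23 within 1 study label, 23 with the study label as a covariate) and 30 passed neither test, with a median log2 fold change of -0.77. Shares were 0% higher and 31.8% lower, against 13.9% and 12.8% of all genes tested. In the cells left, by DESeq2's test, with the replicate number as a block and in a fit of only the 4 libraries, 1 member was called higher. Ifit1, which binds viral RNA, fell from 27.5 and 16.9 CPM at 1 day to 3.105 and 2.61 CPM at 3 weeks (log2 fold change -2.95 ± 0.55, adjusted p = 0.00323). Isg15, a ubiquitin-like protein, fell from 73.7 and 101 CPM at 1 day to 25.5 and 27.9 CPM at 3 weeks (log2 fold change -1.71 ± 0.35). Oasl1 fell from 9.698 and 15.6 CPM at 1 day to 0.259 and 0.652 CPM at 3 weeks (log2 fold change -4.60 ± 0.77). Gbp2 fell from 6.81 and 11.95 CPM at 1 day to 1.55 and 1.54 CPM at 3 weeks (log2 fold change -2.65 ± 0.38). Ifitm3 fell from 347 and 286 CPM at 1 day to 63.5 and 39.3 CPM at 3 weeks (log2 fold change -2.63 ± 0.48). The letters GAAANNGAA, the core of the interferon response element, were in 61.8% of the 34 promoters of this list, against 9.06% of all genes tested, 9.42% of genes called higher and 10.2% of genes called lower. Of the members with a promoter, 7 of 12 that fell and 14 of 22 that were not called held it. Ifit1 and Isg15 had the most matches among the members that fell, from bases 142, 148 and 167 in Ifit1 and 173, 179 and 185 in Isg15, and are shown with all matches in capitals. Isg15 had the highest adjusted p (0.0049) of the called genes whose log2 fold change is given here, and Gbp2 the lowest (0.000939). Oasl1 had a log2 fold change of -5.59 without slice 3 weeks replicate 2. Ifitm3 had a log2 fold change of -1.96 in the cells left.

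Ifit1 promoter (chr19:34640639-34640938, plus strand): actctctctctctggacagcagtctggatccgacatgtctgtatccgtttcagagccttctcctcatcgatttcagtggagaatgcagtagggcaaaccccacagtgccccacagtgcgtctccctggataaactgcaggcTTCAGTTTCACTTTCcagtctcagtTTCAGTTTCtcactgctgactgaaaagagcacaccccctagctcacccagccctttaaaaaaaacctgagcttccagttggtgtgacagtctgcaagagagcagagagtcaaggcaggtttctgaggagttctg
Isg15 promoter (chr4:156200769-156201068, minus strand): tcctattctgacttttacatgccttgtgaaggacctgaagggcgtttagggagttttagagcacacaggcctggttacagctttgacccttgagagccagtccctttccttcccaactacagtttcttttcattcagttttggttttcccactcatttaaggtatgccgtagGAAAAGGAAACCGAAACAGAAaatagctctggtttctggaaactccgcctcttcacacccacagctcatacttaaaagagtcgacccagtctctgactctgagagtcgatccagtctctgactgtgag

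Antigen presentation genes did not move as one group. Of 11 MHC class II genes tested, 5 rose, 3 fell (1 without slice 1 day replicate 1, 1 without slice 3 weeks replicate 2) and 3 passed neither test (45.5% higher and 27.3% lower, against 13.9% and 12.8% of all genes tested), with a median log2 fold change of 0.47. Among those that rose were H2-DMb1, H2-Ob and Ctss. H2-DMb1 rose from 41.9 and 29.6 CPM at 1 day to 159 and 140.2 CPM at 3 weeks (log2 fold change 2.08 ± 0.18). H2-Ob rose from 1.05 and 1.13 CPM at 1 day to 15.8 and 17.98 CPM at 3 weeks (log2 fold change 3.93 ± 0.34). Ctss, the protease that trims the invariant chain, rose from 2701 and 1632 CPM at 1 day to 5812 and 4974 CPM at 3 weeks (log2 fold change 1.32 ± 0.21). Cd74, the invariant chain itself, fell from 338 and 251 CPM at 1 day to 72.7 and 54.3 CPM at 3 weeks (log2 fold change -2.22 ± 0.34, adjusted p = 0.00135). H2-Eb1, a chain of the presenting molecules, was at 19.4 and 1.65 CPM at 1 day and 0 and 0.28 CPM at 3 weeks. H2-Aa, another chain, was at 23.9 and 1.75 CPM at 1 day and 0.259 and 1.49 CPM at 3 weeks, and both were highest in slice 1 day replicate 1. With the replicate number as a block, H2-Aa was not called (adjusted p = 0.0618 in edgeR's test). Of 22 MHC class I and immunoproteasome genes, 4 rose (1 without slice 1 day replicate 2), 2 fell (0 without slice 1 day replicate 2, 0 without slice 3 weeks replicate 2) and 16 passed neither test (18.2% higher and 9.09% lower, against 13.9% and 12.8% of all genes tested), with a median log2 fold change of 0.15. B2m, the shared light chain, rose from 3257 and 2448 CPM at 1 day to 4733 and 4792 CPM at 3 weeks (log2 fold change 0.74 ± 0.20). Tapbp, tapasin of the loading complex, rose from 113 and 87.1 CPM at 1 day to 204 and 191 CPM at 3 weeks (log2 fold change 0.98 ± 0.16). B2m had the highest adjusted p (0.0177) of the called genes whose log2 fold change is given here, and H2-DMb1 the lowest (8.16e-05). H2-Eb1 lost its call without slice 1 day replicate 1 (adjusted p = 0.0612) and without slice 3 weeks replicate 2 (adjusted p = 0.0755). H2-Aa lost its call without slice 1 day replicate 1 (adjusted p = 0.569), without slice 3 weeks replicate 1 (adjusted p = 0.0935), without slice 3 weeks replicate 2 (adjusted p = 0.102), within 1 study label (adjusted p = 0.11), with the study label as a covariate (adjusted p = 0.0522), in a fit of only the 4 libraries (adjusted p = 0.077) and by DESeq2's test (adjusted p = 0.0854). B2m lost its call without slice 1 day replicate 2 (adjusted p = 0.161) and in a fit of only the 4 libraries (adjusted p = 0.069).

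Antioxidant genes fell or passed neither test. Of 28 genes of the pentose phosphate pathway and of NRF2, the factor that answers oxidative stress, 0 rose, 17 fell and 11 passed neither test, with a median log2 fold change of -0.82, and in the cells left 0 rose and 16 fell. Shares in all cells were 0% higher and 60.7% lower, against 13.9% and 12.8% of all genes tested. Hmox1, haem oxygenase 1, which breaks down haem from blood, fell from 1693 and 1936 CPM at 1 day to 348 and 347 CPM at 3 weeks (log2 fold change -2.38 ± 0.31, adjusted p = 0.000606). Slc7a11, the cystine importer, fell from 31.7 and 33.5 CPM at 1 day to 1.94 and 0.373 CPM at 3 weeks (log2 fold change -5.18 ± 0.52). Srxn1, sulfiredoxin, fell from 79.2 and 68.7 CPM at 1 day to 18.5 and 17.002 CPM at 3 weeks (log2 fold change -2.06 ± 0.19). Gsr, glutathione reductase, fell from 291 and 262 CPM at 1 day to 50.5 and 40.6 CPM at 3 weeks (log2 fold change -2.61 ± 0.35). At 1 day Gsr was at 1998 and 1181 CPM in the neutrophil cells and 152 and 161 CPM in the cells left, where its log2 fold change was -1.74 ± 0.21 (adjusted p = 0.000356). Ftl1, the ferritin light chain, was at 18969 and 17335 CPM at 1 day and 14039 and 15390.2 CPM at 3 weeks and was not called (log2 fold change -0.30 ± 0.15, adjusted p = 0.142). Gsr had the highest adjusted p (0.000658) of the called genes whose log2 fold change is given here, and Srxn1 the lowest (0.000102). Slc7a11 had a log2 fold change of -6.08 with the study label as a covariate, -6.42 without slice 3 weeks replicate 1 and -4.06 without slice 3 weeks replicate 2.

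Most glycolytic and hypoxia genes passed neither test. Of 25 glycolytic genes, 4 rose (2 without slice 1 day replicate 1, 1 without slice 1 day replicate 2, 1 without slice 3 weeks replicate 2), 6 fell (3 without slice 1 day replicate 2) and 15 passed neither test (16% higher and 24% lower, against 13.9% and 12.8% of all genes tested), with a median log2 fold change of -0.38. Ldha, lactate dehydrogenase A, fell from 1757 and 1883 CPM at 1 day to 1006 and 961 CPM at 3 weeks (log2 fold change -0.89 ± 0.17). Ldhb rose from 166 and 110.04 CPM at 1 day to 439 and 397 CPM at 3 weeks (log2 fold change 1.60 ± 0.21). The glucose transporter Slc2a1 fell from 202 and 179.6 CPM at 1 day to 91.6 and 88.3 CPM at 3 weeks (log2 fold change -1.09 ± 0.19). Gapdh was at 2987 and 3006 CPM at 1 day and 1871 and 2592 CPM at 3 weeks and was not called (log2 fold change -0.42 ± 0.22, adjusted p = 0.167). Of 26 hypoxia genes, 3 rose (7 without slice 3 weeks replicate 1, 7 within 1 study label, 6 with the study label as a covariate), 5 fell (3 without slice 1 day replicate 1, 3 without slice 1 day replicate 2, 8 without slice 3 weeks replicate 2) and 18 passed neither test (11.5% higher and 19.2% lower, against 13.9% and 12.8% of all genes tested), with a median log2 fold change of 0.09. Hif1a, the oxygen-regulated factor, rose from 38.3 and 46.4 CPM at 1 day to 76.5 and 195 CPM at 3 weeks (log2 fold change 1.68 ± 0.35). P4ha1, a prolyl hydroxylase, rose from 92.8 and 88.4 CPM at 1 day to 194 and 315 CPM at 3 weeks (log2 fold change 1.49 ± 0.21). Bnip3, of mitochondrial removal, was at 318 and 288 CPM at 1 day and 175 and 369.5 CPM at 3 weeks and was not called (log2 fold change -0.15 ± 0.37, adjusted p = 0.791). Hif1a had the highest adjusted p (0.00601) of the called genes whose log2 fold change is given here, and Ldhb the lowest (0.000567). Hif1a had a log2 fold change of 0.85 without slice 3 weeks replicate 2.

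Of 30 unfolded protein and heat shock genes, 1 rose, 9 fell (14 with the study label as a covariate) and 20 passed neither test (3.33% higher and 30% lower, against 13.9% and 12.8% of all genes tested), with a median log2 fold change of -0.47, and in the cells left 0 rose and 11 fell. Hspb1, a small heat shock protein, fell from 8.91 and 7.83 CPM at 1 day to 1.03 and 0.606 CPM at 3 weeks (log2 fold change -3.44 ± 0.51). Hsp90aa1, the inducible HSP90, fell from 452 and 450.5 CPM at 1 day to 188 and 223 CPM at 3 weeks (log2 fold change -1.13 ± 0.19). Hspa8, the constitutive HSP70, was at 1659 and 1863 CPM at 1 day and 1282 and 1144 CPM at 3 weeks and was not called (log2 fold change -0.54 ± 0.19, adjusted p = 0.051). Of 31 ATF4 targets and tRNA synthetases, 4 rose (2 without slice 1 day replicate 1, 7 without slice 3 weeks replicate 1, 7 within 1 study label), 2 fell and 25 passed neither test (12.9% higher and 6.45% lower, against 13.9% and 12.8% of all genes tested), with a median log2 fold change of 0.24. Cebpg, a partner of ATF4, rose from 66.3 and 50.5 CPM at 1 day to 106 and 135 CPM at 3 weeks (log2 fold change 1.05 ± 0.19). Phgdh, the first enzyme of serine synthesis, rose from 146 and 140.3 CPM at 1 day to 317 and 239.8 CPM at 3 weeks (log2 fold change 0.96 ± 0.18). Phgdh had the highest adjusted p (0.00305) of the called genes whose log2 fold change is given here, and Hspb1 the lowest (0.00109). Hspa8 was called without slice 3 weeks replicate 1 (adjusted p = 0.0489), within 1 study label (adjusted p = 0.00655), with the study label as a covariate (adjusted p = 0.0106), with scaling by library size alone (adjusted p = 0.0323) and in the cells left (adjusted p = 0.0305).

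More cytoskeletal and adhesion genes fell than rose. Of 32 tested, 6 rose (1 without slice 1 day replicate 2), 17 fell (10 without slice 1 day replicate 1, 8 without slice 1 day replicate 2, 9 without slice 3 weeks replicate 2, 11 in a fit of only the 4 libraries) and 9 passed neither test (18.8% higher and 53.1% lower, against 13.9% and 12.8% of all genes tested), with a median log2 fold change of -0.62. Pfn1, profilin, which feeds actin monomers to growing filaments, fell from 2611 and 2657 CPM at 1 day to 537 and 327 CPM at 3 weeks (log2 fold change -2.61 ± 0.33, adjusted p = 0.000473). Cd44, the hyaluronan receptor, fell from 80.99 and 73.7 CPM at 1 day to 15.01 and 18.8 CPM at 3 weeks (log2 fold change -2.17 ± 0.23). Itga4, an integrin of circulating leukocytes, fell from 19.1 and 14.9 CPM at 1 day to 2.85 and 3.26 CPM at 3 weeks (log2 fold change -2.43 ± 0.27). Itgb5, an integrin chain for vitronectin and apoptotic cells, rose from 254 and 195 CPM at 1 day to 632 and 518 CPM at 3 weeks (log2 fold change 1.36 ± 0.25). Its partner Itgav rose from 21.2 and 18.8 CPM at 1 day to 30.01 and 36.3 CPM at 3 weeks (log2 fold change 0.75 ± 0.15). Itgam, encoding CD11b of the sort, rose from 177 and 159.7 CPM at 1 day to 264 and 257 CPM at 3 weeks (log2 fold change 0.63 ± 0.15). Cdc42 was at 952 and 949 CPM at 1 day and 828 and 719 CPM at 3 weeks and was not called (log2 fold change -0.30 ± 0.13, adjusted p = 0.12). Itgam had the highest adjusted p (0.0109) of the called genes whose log2 fold change is given here, and Cd44 the lowest (0.000192). Itgav lost its call without slice 1 day replicate 2 (adjusted p = 0.0736). Itgam lost its call without slice 1 day replicate 2 (adjusted p = 0.0946), with the study label as a covariate (log2 fold change 0.58) and with scaling by library size alone (log2 fold change 0.55). Itga4 had a log2 fold change of -1.55 in the cells left.

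Of 19 galectins, annexins and S100 proteins, 3 rose, 8 fell and 8 passed neither test (15.8% higher and 42.1% lower, against 13.9% and 12.8% of all genes tested), with a median log2 fold change of -0.63. Lgals1, galectin 1, fell from 1208 and 1364 CPM at 1 day to 653 and 416 CPM at 3 weeks (log2 fold change -1.27 ± 0.22). S100a10, the partner of annexin A2, fell from 36.7 and 32.5 CPM at 1 day to 3.75 and 5.96 CPM at 3 weeks (log2 fold change -2.76 ± 0.39). Anxa3 rose from 344 and 357 CPM at 1 day to 767 and 868 CPM at 3 weeks (log2 fold change 1.22 ± 0.14). Lgals3, galectin 3, was at 1874 and 1546 CPM at 1 day and 675 and 1301 CPM at 3 weeks and was not called (log2 fold change -0.79 ± 0.41, adjusted p = 0.168). Of 25 growth factor and matrix genes, 7 rose, 7 fell (4 without slice 1 day replicate 2) and 11 passed neither test, with a median log2 fold change of -0.08. Shares of this list were 28% higher and 28% lower, against 13.9% and 12.8% of all genes tested. Timp2, an inhibitor of matrix proteases, rose from 253 and 259 CPM at 1 day to 735 and 735 CPM at 3 weeks (log2 fold change 1.52 ± 0.16). Adam10, a membrane sheddase, rose from 35.1 and 40.9 CPM at 1 day to 72.1 and 129 CPM at 3 weeks (log2 fold change 1.399 ± 0.24). Some other proteases were lower. Mmp9 was at 97.8 and 96.03 CPM at 1 day and 0 and 0.419 CPM at 3 weeks, Mmp8 at 33.8 and 88.3 CPM at 1 day and 0 and 0.0466 CPM at 3 weeks, and Adam8 fell from 204 and 186 CPM at 1 day to 32.5 and 17.4 CPM at 3 weeks (log2 fold change -2.99 ± 0.31). Mmp9 was at 1573 and 880.4 CPM in the neutrophil cells and 27.3 and 28.5 CPM in the cells left, and Adam8 at 69.9 and 90.2 CPM and 231 and 203 CPM. Lgals1 had the highest adjusted p (0.00243) of the called genes whose log2 fold change is given here, and Adam8 the lowest (0.000183).

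Genes listed for neonatal microglia moved in both directions. Of 27, 8 rose (5 without slice 1 day replicate 2), 11 fell and 8 passed neither test, with a median log2 fold change of -0.65. Shares were 29.6% higher and 40.7% lower, against 13.9% and 12.8% of all genes tested. Lyz2, lysozyme, rose from 1182 and 1702 CPM at 1 day to 3408 and 3745 CPM at 3 weeks (log2 fold change 1.31 ± 0.25). Fcgr2b, the inhibitory Fc receptor, rose from 129 and 80.2 CPM at 1 day to 248 and 238 CPM at 3 weeks (log2 fold change 1.23 ± 0.23). Dab2, an endocytic adaptor, fell from 519 and 522 CPM at 1 day to 167 and 135 CPM at 3 weeks (log2 fold change -1.79 ± 0.15). Plac8, which monocytes and neutrophils also carry, was at 95.7 and 91.5 CPM at 1 day and 0 and 0.0932 CPM at 3 weeks, and at 1 day at 116 and 447 CPM in the neutrophil cells and 34.1 and 31.96 CPM in the cells left. Lyz2 had the highest adjusted p (0.00417) of the called genes whose log2 fold change is given here, and Dab2 the lowest (8.16e-05).

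The share of cells with RNA of cell division did not separate the groups. With every cell thinned to 1800 UMIs, cells with 2 or more UMIs over Mki67, Top2a, Cdk1, Birc5, Ccnb2, Ube2c, Rrm2 and 2810417H13Rik made up 10.4% (exact 95% binomial interval 7.82 to 13.4) and 14.6% (12.5 to 16.9) at 1 day and 13.1% (11.2 to 15.2) and 5.75% (5.02 to 6.55) at 3 weeks. The thinning left out 26, 0, 23 and 51 shallower cells, and without it the shares were 18.7% and 37.7% at 1 day and 22.2% and 9.95% at 3 weeks. Neutrophil cells, which do not divide once mature, passed the same count in 0 of 53 cells (which allows up to 5.66%) and in 11.4% (6.21 to 18.7). Whether all of them were mature was not tested. In slice 1 day replicate 2, background RNA and dividing neutrophil cells thus cannot be told apart. There the share of all cells was not told from that of the neutrophil cells. Of 40 S phase genes, 0 rose, 0 fell (23 without slice 3 weeks replicate 1, 23 within 1 study label, 6 with the study label as a covariate) and 40 passed neither test, with a median log2 fold change of -0.35, and edgeR's test thus called 0, with 1 at an unadjusted p under 0.05 and 0 called by DESeq2. Shares of the S phase list were 0% higher and 0% lower, against 13.9% and 12.8% of all genes tested. Pcna, the sliding clamp of replication, was at 158 and 186 CPM at 1 day and 138 and 63.5 CPM at 3 weeks and was not called (log2 fold change -0.78 ± 0.29, adjusted p = 0.0657). Of 46 G2 and M phase genes, 3 rose, 3 fell (1 without slice 1 day replicate 1, 0 without slice 1 day replicate 2, 11 without slice 3 weeks replicate 1, 0 without slice 3 weeks replicate 2, 11 within 1 study label, 8 with the study label as a covariate) and 40 passed neither test (6.52% higher and 6.52% lower, against 13.9% and 12.8% of all genes tested), with a median log2 fold change of 0.02. Mki67, the proliferation antigen, rose from 9.44 and 19.8 CPM at 1 day to 35.8 and 40.2 CPM at 3 weeks (log2 fold change 1.31 ± 0.30). It was highest in slice 3 weeks replicate 2, where that share of cells was lowest. Cenpf rose from 9.17 and 9.48 CPM at 1 day to 27.6 and 25.9 CPM at 3 weeks (log2 fold change 1.51 ± 0.25). Hmgb2 fell from 214 and 423 CPM at 1 day to 173 and 98.9 CPM at 3 weeks (log2 fold change -1.23 ± 0.38). The E2F letters (TTTCGCGC or TTTGGCGC) were in 33.3% of the 30 S phase promoters, 1.25% of genes called higher, 1.60% of genes called lower and 1.87% of all tested. Hmgb2 had the highest adjusted p (0.0333) of the called genes whose log2 fold change is given here, and Cenpf the lowest (0.00178). Pcna was called without slice 3 weeks replicate 1 (adjusted p = 0.000681), within 1 study label (adjusted p = 0.000608), with the study label as a covariate (adjusted p = 0.0325), in the cells left (adjusted p = 0.0489) and once cycling cells were left out (adjusted p = 0.02). Mki67 lost its call once cycling cells were left out (adjusted p = 0.625). Cenpf lost its call once cycling cells were left out (adjusted p = 0.95). Hmgb2 lost its call without slice 1 day replicate 2 (adjusted p = 0.308), without slice 3 weeks replicate 2 (adjusted p = 0.179) and in a fit of only the 4 libraries (adjusted p = 0.0619). Mki67 had a log2 fold change of -0.43 once cycling cells were left out and 2.02 without slice 1 day replicate 2. Cenpf had a log2 fold change of 0.09 once cycling cells were left out.

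Most ribosomal and respiratory genes passed neither test. Of 79 cytosolic ribosomal protein genes, 1 rose (22 without slice 3 weeks replicate 1, 23 within 1 study label, 3 with the study label as a covariate), 0 fell (3 without slice 3 weeks replicate 2, 2 with the study label as a covariate, 2 with scaling by library size alone) and 78 passed neither test, with a median log2 fold change of 0.13. Shares of the ribosomal list were 1.27% higher and 0% lower, against 13.9% and 12.8% of all genes tested. Rps29 was at 4667 and 4299.8 CPM at 1 day and 5514 and 8354 CPM at 3 weeks and was not called (log2 fold change 0.63 ± 0.25, adjusted p = 0.0804). Of 81 nuclear respiratory chain genes, 4 rose (0 without slice 1 day replicate 2, 2 without slice 3 weeks replicate 2, 2 in a fit of only the 4 libraries), 11 fell (4 without slice 1 day replicate 2, 5 without slice 3 weeks replicate 2) and 66 passed neither test (4.94% higher and 13.6% lower, against 13.9% and 12.8% of all genes tested), with a median log2 fold change of -0.21. Cycs, cytochrome c, fell from 347 and 401 CPM at 1 day to 174 and 135 CPM at 3 weeks (log2 fold change -1.28 ± 0.16). Cox7a2l rose from 271 and 226 CPM at 1 day to 404 and 686 CPM at 3 weeks (log2 fold change 1.14 ± 0.23). Of the 13 mitochondrial protein genes, 4 rose (2 without slice 1 day replicate 1, 2 without slice 3 weeks replicate 2), 0 fell and 9 passed neither test, with a median log2 fold change of 0.47. Shares of the mitochondrial list were 30.8% higher and 0% lower, against 13.9% and 12.8% of all genes tested. The gene mt-Co1 rose from 2167 and 2199.7 CPM at 1 day to 3681 and 4243 CPM at 3 weeks (log2 fold change 0.86 ± 0.17) and mt-Co3 was at 2344 and 2458 CPM at 1 day and 3637 and 2909 CPM at 3 weeks and was not called (log2 fold change 0.45 ± 0.20, adjusted p = 0.123). Cox7a2l had the highest adjusted p (0.00542) of the called genes whose log2 fold change is given here, and Cycs the lowest (0.000456). Rps29 was called without slice 3 weeks replicate 1 (adjusted p = 0.0161) and within 1 study label (adjusted p = 0.000238). Cox7a2l lost its call without slice 1 day replicate 2 (adjusted p = 0.0595).

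Of 7 nuclear long noncoding RNAs tested, 0 rose, 3 fell and 4 passed neither test, with a median log2 fold change of -1.01. Shares were 0% higher and 42.9% lower, against 13.9% and 12.8% of all genes tested. Neat1, the scaffold of paraspeckles, fell from 308 and 227 CPM at 1 day to 130.3 and 126 CPM at 3 weeks (log2 fold change -1.06 ± 0.17). Malat1 was at 16499.6 and 14616 CPM at 1 day and 13969 and 18727 CPM at 3 weeks and was not called (log2 fold change 0.07 ± 0.20, adjusted p = 0.825). Neat1 had an adjusted p of 0.00165.

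The share of each cell's UMIs held by a list was set out over the cells left, each thinned to 1800 UMIs. For homeostatic genes the median cell held 1.06% and 0.944% at 1 day and 3.89% and 3.22% at 3 weeks, and the 10th percentile at 3 weeks (1.83% and 1.22%) was above the median at 1 day. The 90th percentile was 3.94% in slice 1 day replicate 1 and 1.61% in replicate 2, so that library held a minority of cells with homeostatic shares like those at 3 weeks. Lysosomal genes, a list added after values were seen, held 3.44% and 3.28% of the median cell at 1 day and 8.28% and 6.94% at 3 weeks. Disease-associated genes held 6.5% and 6.17% at 1 day and 10.3% and 9.11% at 3 weeks. For all 3 lists both medians at 3 weeks were above both at 1 day. The cytokine list was 0.167% in the median cell of both 1 day libraries and 0.111% and 0.0556% at 3 weeks, where the 90th percentile was 0.289% and 0.222% against 0.611% and 0.556% at 1 day. Chemokines held 0.389% and 0.444% of the median cell at 1 day and 0.222% and 0.167% at 3 weeks. Glycolytic genes held 1.11% and 1.17% at 1 day and 0.833% and 0.778% at 3 weeks, S and G2/M phase genes together 0.111% and 0.167% against 0.111% and 0.0556%, and ribosomal protein genes 16.6% and 17.1% against 13.6% and 19.3%, with overlapping groups for the last pair of lists. With 2 libraries against 2 no test was made on these shares.

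**Figure D4:**
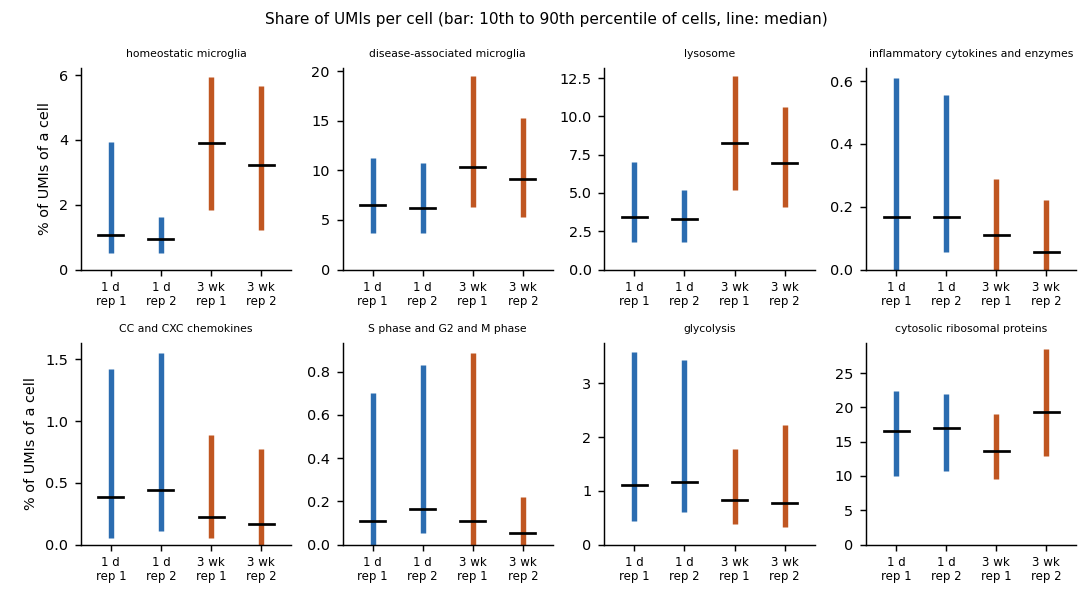
Percent of the UMIs of a cell held by 8 gene lists in each of the 4 libraries (1 day in blue, 3 weeks in orange), over the cells left thinned to 1800 UMIs, where the bar runs from the 10th to the 90th percentile of cells and the black line is the median. The homeostatic and lysosomal bars sit higher at 3 weeks, where the median cell held 3.89% and 3.22% and 8.28% and 6.94%, while the ribosomal medians at 3 weeks (13.6% and 19.3%) lie on either side of those at 1 day.

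After thinning, Cst7 had a UMI in 5.93% and 5.50% of the cells left at 1 day, in 1.89% and 2.63% of the neutrophil cells, and in 60.6% and 76.9% of cells at 3 weeks (16.8%, 21.2%, 83.3% and 89.6% of the cells left without thinning). P2ry12 had one in 18.02% and 12.5% of the cells left at 1 day and in 63.0% and 54.8% at 3 weeks, against 11.3% and 7.90% of the neutrophil cells, and Gpnmb in 2.22% and 3.63% and in 13.5% and 10.1%, against 0 of 53 (which allows up to 5.66%) and 1.75%. No background share was measured at 3 weeks, where there were no neutrophil cells, so these 3 week shares are shares of cells with a UMI and not of cells expressing the gene. Spp1 went the other way, from 86.2% and 98.8% of the cells left at 1 day to 57.0% and 22.6% at 3 weeks, but 69.8% and 97.4% of the neutrophil cells also had an Spp1 UMI, a level close to that of the cells left in replicate 2. Hmox1 fell from 64.9% and 75.2% to 31.5% and 27.2% (neutrophil cells 28.3% and 50.9%). Median depth was 7148.5 and 9129.5 UMIs in the cells left and 2224 and 4925 UMIs in the neutrophil cells at 1 day before thinning.

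The 3 week levels were also set beside those in slices at 1 week and in adult microglia sorted straight from the brain. P2ry12 was at 426 and 402 CPM in slices at 1 week and at 6486 and 7398 CPM in adult cells, and Tmem119 at 215 and 228 and 2661 and 2668 CPM, so both were higher in the adult than at 3 weeks. Cst7, at 42.5 and 81.9 CPM at 1 week and 21.9 and 14.3 CPM in the adult, and Gpnmb, at 71.1 and 86.99 CPM and 0 in both adult libraries, were highest at 3 weeks among these 4 groups. Apoe was at 65849 and 63891 CPM at 1 week, above its 3 week level, and at 1027 and 669.9 CPM in the adult. Ctsd was at 7535 and 9244 CPM at 1 week and 10111 and 8173 CPM in the adult. Spp1 was at 5648 and 6056 CPM at 1 week and 5.05 and 8.37 CPM in the adult. Hmox1 was at 511 and 207 CPM at 1 week and 31.7 and 26.3 CPM in the adult. The 1 week libraries held only 148 and 61 cells, and these levels are given as a description with no test.

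**Figure D5:**
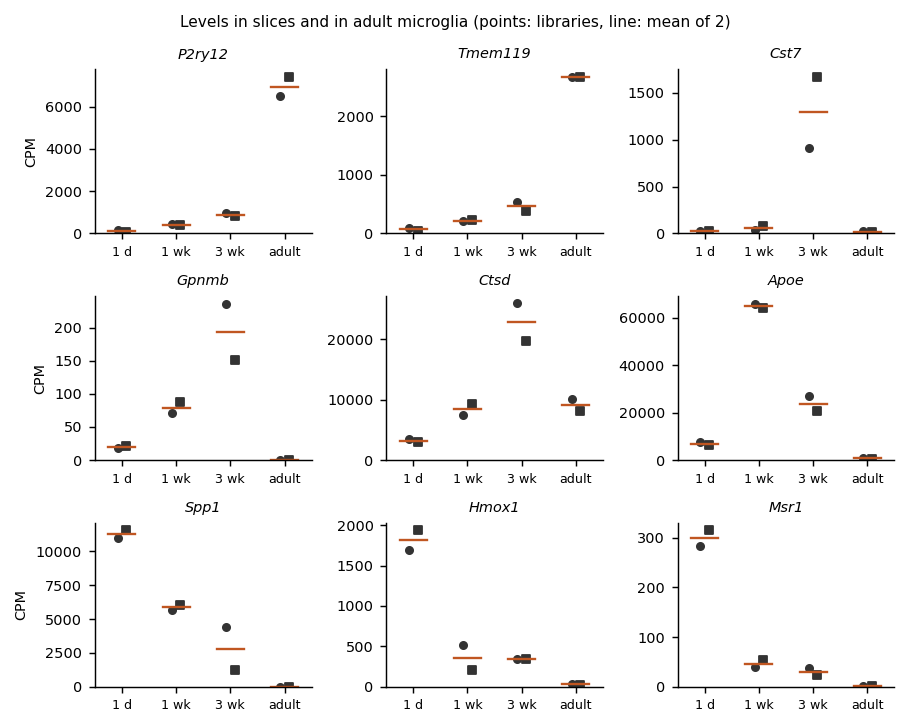
CPM (linear axes from 0) of 9 genes in slices at 1 day, 1 week and 3 weeks and in adult microglia, with 1 point per library (circle, replicate 1, and square, replicate 2) and a line at the mean of 2. P2ry12 and Tmem119 are highest in the adult, Cst7, Gpnmb and Ctsd are highest at 3 weeks, Apoe peaks at 1 week, and Spp1, Hmox1 and Msr1 are highest at 1 day.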

How the data were processed

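Counts of unique molecular identifiers (UMIs) per gene and cell were deposited by the authors, who made them with Cell Ranger 1.3.0 against mm10 per the submitters' processing notes, with no normalization. Cells with at most 5% mitochondrial UMIs, at least 400 genes and at most 30000 UMIs were kept, which removed 184 of 6609 barcodes of these 4 libraries, and no doublet caller was run. Counts were summed per library. edgeR 4.0.16 (R 4.3.3) fitted the 10 libraries in 5 groups with TMM factors, after its filter on low counts (minimum 10), and the quasi-likelihood test of 3 weeks minus 1 day was adjusted by Benjamini-Hochberg over 12157 genes. The biological coefficient of variation was 18.3%. Alternatives used DESeq2 1.42.0, other scalings, other filters and other sets of libraries or cells. The method was tested on simulated data. The series calls the libraries biological replicates without naming animals, so p-values measure the spread between these libraries. Same-numbered libraries deviated with r = -0.11, and no label says that a number marks a shared batch, so numbers were not used for pairing.

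Members and gene lists were chosen with earlier results of these data known. Named genes were the 12 largest called rises and falls with groups apart and a mean log2 CPM over the 10 libraries no lower than 5. From each list, called genes of lowest adjusted p (up to 4 a direction) were named with the most abundant gene not called. The text names a part of these, and the few others it names were chosen after their values were seen. The neutrophil and monocyte-like cells were also defined after the data were seen. Promoters came from RefSeq (GRCm38.p6). Python 3.11.15, pandas 2.3.3, scipy 1.17.1 and matplotlib 3.10.9 were used. With 2 libraries per group, depth and number of libraries limit small changes, and genes near 0 rest on few UMIs.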

Additional observations from a re-analysis of the deposited data

How the results depend on the processing

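Settings were changed one at a time, except that the fit of the cells left was also run within 1 study label and without each library in turn. Against 1689 genes higher and 1557 lower, a fit of only the 4 libraries gave 1038 higher, and a fold over 2 gave 1014 higher and 855 lower. Leaving out each library in turn gave 656 to 2260 higher and 784 to 2009 lower, and in the cells left without neutrophil and monocyte-like cells 598 to 2292 and 803 to 2024. The other settings stayed within 1.5 times, at 1381 to 2310 higher (13 settings) and 1158 to 2233 lower (14 settings). Of the genes named that were called in the main fit or in the changed one, Mki67 alone turned its direction. It was at -0.43 on the log2 scale without cycling cells, which removes the cells chosen by Mki67 itself. Turns of genes called in neither fit were not counted. With the replicate block there were 1574 higher and 1522 lower. The libraries share only a number, and nothing was crossed. DESeq2's test called 1564 higher and 1548 lower, and scaling by library size alone gave 1432 and 1820. A planned fit without all cells holding other myeloid genes was not run, because 0 cells were left in slice 1 day replicate 2. The fits without neutrophil or monocyte-like cells were added after seeing the data. Promoter shares in a window of 150 bases moved in 48 of 96 values, as a shorter window holds fewer matches.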
